A study of Mus musculus with 16 samples.

Results

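The 10 genes described here encode subunits of the Polycomb repressive complexes in mouse intestinal epithelium, and their RNA was compared between epithelium with and without Cul4b. They were taken by symbol, as the rows named Ezh2, Ezh1, Suz12, Eed, Rbbp4, Ring1, Rnf2, Bmi1, Cbx7 and Cbx8 among the 52636 genes of the crypt and tamoxifen-induced organoid tables and the 54532 genes of the other organoid table. Cul4b is an X-linked gene for the scaffold of a cullin-RING ubiquitin ligase, CRL4B, which is known to place ubiquitin on histone H2A and to act together with PRC2. All 10 passed the filter on low counts in all 3 experiments.

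PRC2 methylates histone H3 at lysine 27 through either of the methyltransferases Ezh2 and Ezh1, which need the partners Suz12 and Eed, while Rbbp4 is a histone-binding protein that PRC2 shares with other chromatin complexes. PRC1 ubiquitinates histone H2A through either of the ligases Ring1 and Rnf2. In canonical PRC1 the ligase sits with a PCGF protein such as Bmi1 and with a chromodomain protein such as Cbx7 or Cbx8, which reads the methyl mark set by PRC2. In the gut these complexes are known to hold developmental regulators and cell cycle inhibitors silent in cycling crypt cells.

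The 16 RNA-seq libraries were from the small intestine of male mice of C57BL/6 background that carried a floxed Cul4b allele (Cul4b fn/Y), also in the controls. In the first experiment, isolated crypts of 4 KO IEC mice, in which Cre under the Villin promoter deletes Cul4b throughout the intestinal epithelium (pVillin-Cre; Cul4b fn/Y), were compared with crypts of 4 WT mice (Cul4b fn/Y). In the second, organoids grown from KO IEC crypts (2 libraries) were compared with WT organoids (2 libraries), and both are called IEC organoids below. In the third, called CAG organoids, deletion was by tamoxifen-activated Cre under the ubiquitous CAG promoter (KO CAG: CAG-CreERT2; Cul4b fn/Y; 2 libraries against 2 WT), and the sources used here do not say whether its WT organoids carried CreERT2 or received the drug. Mice were 8 to 16 weeks old in most of the study's experiments, and the study calls the libraries of a group biological replicates. Total counts were 9311734 to 13479974 in the crypt libraries, 15006730 to 16881395 in the IEC organoid libraries and 7348191 to 10462275 in the CAG organoid libraries, and the lowest count of any of the 10 genes in any library was 80, for Cbx8. In bulk RNA, fewer cells that express a gene and less RNA per cell cannot be told apart.

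Levels are given as CPM, the read count relative to the library size, with TMM scaling over the tested genes of each experiment. Cul4b itself was at 31.7, 33.2, 38.3 and 32.3 CPM in the WT crypts and at 1.69, 0.993, 0.848 and 2.21 CPM in the KO crypts. The WT IEC organoids had 83.2 and 73.2 CPM against 1.69 and 1.76 CPM in the KO, and the CAG organoids had 72.9 and 70.1 CPM (WT) against 3.34 and 5.19 CPM (KO). Every KO library was thus far below every WT library of its experiment, with log2 fold changes of -4.56, -5.50 and -4.02 (edgeR quasi-likelihood test, Benjamini-Hochberg adjusted p = 0.000169, 0.0311 and 1.93e-06).

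Some libraries stood apart from the others of their group in marker genes outside the Polycomb list. KO2 of the IEC organoids had a summed level of 748 CPM over 12 markers of proliferating cells, where the other 3 IEC organoid libraries had 2027 to 2249 CPM, and 623 CPM over 8 intestinal stem cell markers, where they had 2280 to 4924 CPM. Its goblet cell markers summed to 7034 CPM (1780 to 2093 CPM in the other 3) and its enteroendocrine markers to 906 CPM (262 to 457 CPM). Among the crypt libraries KO3 had the lowest sum of proliferating cell markers, 1286 CPM, and the highest sum of lymphocyte and myeloid markers, 416 CPM, where the other 7 had 30.3 to 222 CPM. Its Paneth cell markers summed to 2051 CPM, where the other 7 had 7727 to 18811 CPM. The tuft cell markers of crypt KO4 summed to 192 CPM, where the other crypt libraries had 30.5 to 49.0 CPM. The crypt libraries also differed in RNA from the mitochondrial ribosomal genes mt-Rnr1 and mt-Rnr2, with 18.6 to 27.6 CPM in WT1 and KO1 to KO3, 833 and 1107 CPM in WT4 and KO4, and 2740 and 2737 CPM in WT2 and WT3, so that this difference in RNA composition partly follows genotype.

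Per exonic length, the subunits differed in abundance, with Suz12 highest and Cbx8 lowest by group mean in every experiment and an order between them that varied. On this scale Suz12 had the highest level of the 10 in 16 of 16 libraries, at 24.5 ± 1.60 CPM per kilobase (SD, n = 4) in WT crypts, 31.9 ± 0.630 (SD, n = 2) in WT IEC organoids and 27.2 ± 0.296 (SD, n = 2) in WT CAG organoids. Eed and Rbbp4 came next in WT crypts at 15.8 ± 0.414 and 15.5 ± 1.78 CPM per kilobase, closer to each other than the spread between mice. Ezh2 followed at 11.7 ± 0.839 and Ring1 at 10.05 ± 0.852 CPM per kilobase, above a group of Ezh1, Bmi1 and Cbx7 at 6.37 ± 0.446, 6.31 ± 0.964 and 5.78 ± 1.02, which lay within one another's spread. Rnf2 had 4.51 ± 0.352 CPM per kilobase. In the organoids the order between these differed. Rbbp4 lay above Eed in WT IEC organoids, at 21.3 ± 0.862 against 16.4 ± 1.77 CPM per kilobase, and in WT CAG organoids, at 20.7 ± 0.209 against 16.5 ± 1.47 (SD, n = 2 each). Rnf2, below Ring1 in WT crypts, was level with it in WT IEC organoids, at 8.92 ± 0.225 against 8.86 ± 0.322 CPM per kilobase (SD, n = 2 each). Cbx8 was lowest, at 2.72 ± 0.131 in WT crypts, and it was the lowest of the 10 in 15 of 16 libraries, the exception being crypt KO3, where Cbx7 was lower. These values use one exonic length per gene and would shift if a gene used mainly its shorter transcripts.

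**Figure D1:**
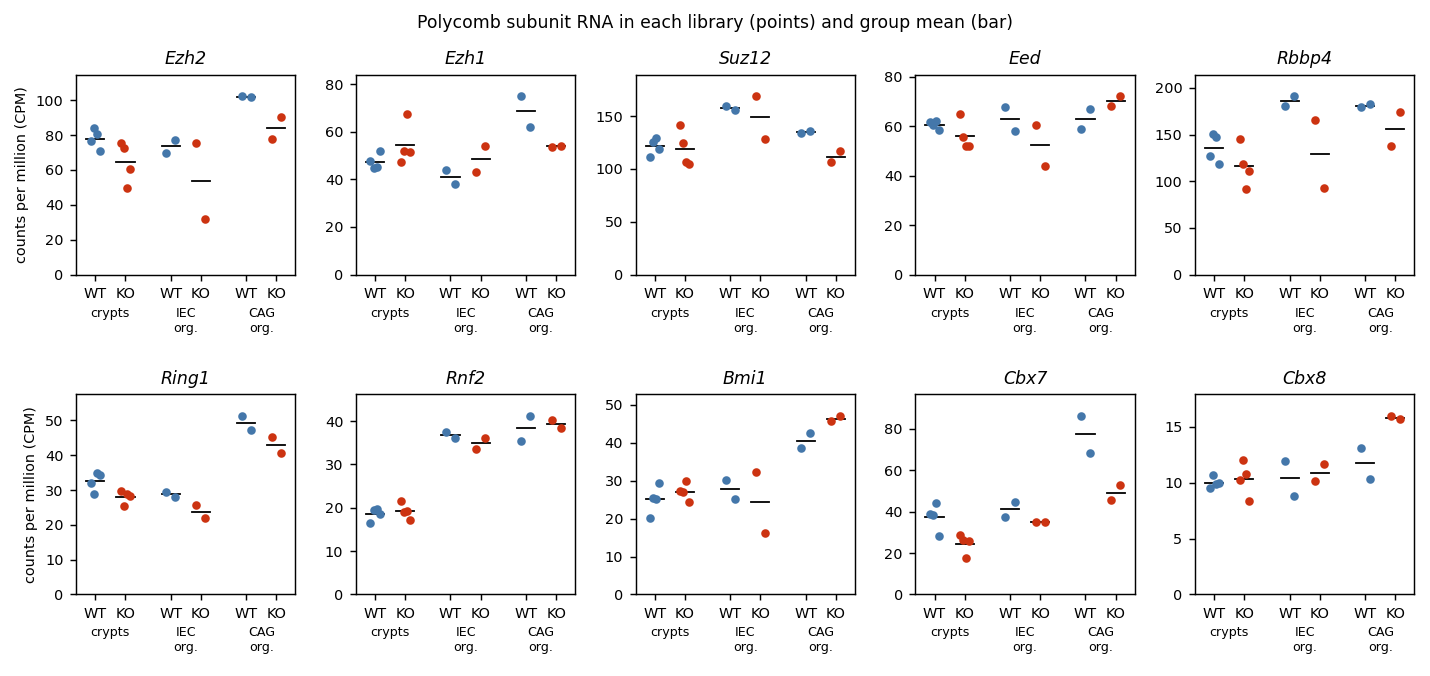
Level of each of the 10 subunit RNAs in CPM (vertical axes, from 0) in every library (points) of WT (blue) and KO (red) crypts, IEC organoids and CAG organoids, with the group mean as a bar. Cbx7 lay lower in both CAG KO libraries (45.5 and 52.7 CPM) than in both WT libraries, and the second IEC organoid KO library had 31.9 CPM of Ezh2 against 69.8 to 77.2 CPM in the other 3.

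In crypts, none of the 10 subunits changed at an adjusted p under 0.05, while 6.96% of the 13427 genes tested did. At an unadjusted p under 0.05 there was 1, Cbx7, where 4287 of the 13427 genes were under it. The 10 log2 fold changes ran from -0.61 to 0.20 with a median of -0.07, beside a median of -0.01 over all genes tested, and 6 of the 10 were negative. For 0 of the 10 did the 4 KO and 4 WT libraries separate without overlap, where 8.79% of all genes had every KO library below every WT library and 8.7% had every one above. In the KO IEC organoids 0 of the 10 changed either, in a comparison that called 0.00717% of 13938 genes, a single one, Cul4b. At an unadjusted p under 0.05 there were 0 of the 10 and 650 of all genes. In CAG organoids 4 of the 10 fell, and none rose: Cbx7, Ezh1, Suz12 and Ezh2. That comparison called 31.5% of 13598 genes, 13.4% lower and 18.1% higher in KO. The spread between libraries of a group that edgeR estimated, as a biological coefficient of variation, was 0.081 in CAG organoids. It was 0.231 in crypts and 0.280 in IEC organoids, so a change of a given size passed more readily in CAG organoids. The 4 called members of 10 stand beside 31.5% when counted in either direction and beside 13.4% when counted as lower. None of the 4 reached a fold of 2, a size that 8.6% of all genes reached together with the adjusted p. The same 4 genes were called with DESeq2 size factors and with the replicate number as a block, but only Cbx7 with DESeq2's Wald test and none in a fit over all 16 libraries. Without WT1 only Cbx7 stayed past the threshold, and without WT2 only Cbx7 and Ezh1.

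**Figure D2:**
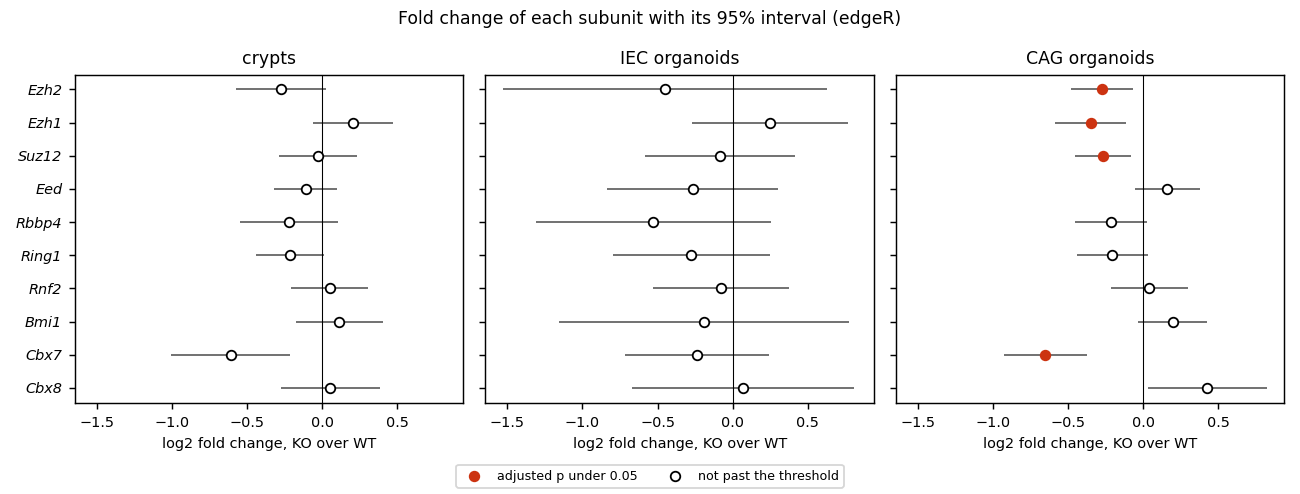
Log2 fold change of KO over WT for the 10 subunits (horizontal axes) in crypts, IEC organoids and CAG organoids, with its 95% interval from the edgeR fit as a line; filled points passed an adjusted p of 0.05. Cbx7 has a negative value in all 3 panels, from -0.65 in CAG organoids to -0.24 in IEC organoids, and the intervals of the IEC organoids are the widest.

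Among the PRC2 subunits, the methyltransferase Ezh2 fell in KO CAG organoids. Its gene lies on chromosome 6 from 47530139 to 47595341 on the minus strand (GRCm38). Ezh2 was at 102.4 and 101.7 CPM in the WT and at 78.0 and 90.3 CPM in the KO CAG organoids, so both KO libraries were lower, with a log2 fold change of -0.27 (SE 0.09, adjusted p = 0.0450 by edgeR's quasi-likelihood test, a change of -17.3%). In crypts its 4 WT libraries had 76.6, 83.8, 80.7 and 70.8 CPM and its 4 KO libraries 75.5, 72.4, 49.8 and 60.6 CPM. These groups overlapped, and the log2 fold change of -0.27 (95% interval -0.57 to 0.03) had an adjusted p of 0.191. In IEC organoids KO1 had 75.6 CPM of Ezh2, inside the range of the WT libraries at 69.8 and 77.2 CPM, and KO2 had 31.9 CPM. The log2 fold change there, -0.45 (SE 0.42, adjusted p = 0.856), rested on KO2: it was 0.04 without KO2 and -1.20 without KO1.

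Ezh1, the second PRC2 methyltransferase (chromosome 11, 101191115 to 101226463, minus strand), is known for expression in cells that have left the cell cycle. It had 75.05 and 62.2 CPM in the WT CAG organoids and 53.7 and 54.0 CPM in the KO, a fall by 0.35 on the log2 scale (SE 0.11, adjusted p = 0.0311 by edgeR). In crypts the values were 47.7, 44.7, 45.2 and 51.9 CPM in WT and 47.4, 52.0, 67.4 and 51.6 CPM in KO, with the highest value in KO3. The log2 fold change was 0.20 in crypts (95% interval -0.06 to 0.47, adjusted p = 0.265) and 0.25 in IEC organoids (95% interval -0.27 to 0.76, adjusted p = 0.856). The difference between the CAG organoid and the crypt effect was -0.57 (SE 0.22, unadjusted p = 0.0206, adjusted p = 0.250 in the edgeR fit over all 16 libraries), and that between CAG and IEC organoids was -0.62 (SE 0.25, adjusted p = 0.379). Neither passed the threshold.

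Suz12, which holds PRC2 together (chromosome 11, 79993106 to 80034123, plus strand), had 133.6 and 135.7 CPM in WT and 106.1 and 116.9 CPM in KO CAG organoids, with a log2 fold change of -0.27 (SE 0.08, adjusted p = 0.0323 by edgeR). The KO libraries were both lower than the WT libraries. In crypts the 4 WT libraries, from 111.3 to 129.4 CPM, lay inside the range of the 4 KO libraries, from 104.4 to 141.5 CPM, and the log2 fold change of -0.03 had a 95% interval from -0.29 to 0.23. In IEC organoids it was -0.08 (95% interval -0.58 to 0.41).

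Eed, the subunit that binds the methyl mark (chromosome 7, 89954654 to 89980983, minus strand), did not pass the threshold in any experiment. In CAG organoids it had 59.0 and 67.0 CPM in WT and 68.3 and 72.2 CPM in KO, which makes it the only PRC2 subunit of the 5 with both KO libraries above the WT libraries there (log2 fold change 0.16, 95% interval -0.06 to 0.37, adjusted p = 0.233 by edgeR). In crypts the log2 fold change was -0.11 (95% interval -0.32 to 0.10) and in IEC organoids -0.27 (95% interval -0.84 to 0.30).

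Rbbp4, the shared histone-binding protein (chromosome 4, 129307100 to 129335370, minus strand), had negative log2 fold changes of -0.22, -0.53 and -0.21 in crypts, IEC organoids and CAG organoids (edgeR adjusted p = 0.318, 0.856 and 0.160). The KO libraries of the IEC organoids had 165.3 and 92.6 CPM against 180.7 and 191.4 CPM in WT, and the value was -0.17 without KO2 and -1.01 without KO1. In crypts the lowest library was again KO3, at 92.0 CPM, where the others had 111.3 to 150.8 CPM. Of the exonic bases of Rbbp4, 9.10% also belong to the antisense RNA Gm26722 and 8.94% to Sync on the other strand, and whether reads were counted by strand is not given in the sources used here.

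Among the PRC1 subunits, Cbx7, the chromodomain protein that reads the PRC2 mark, had the largest absolute log2 fold change of the 10 in crypts and in CAG organoids. The gene lies on chromosome 15 from 79915807 to 79971119 on the minus strand. In CAG organoids it had 86.3 and 68.5 CPM in WT and 45.5 and 52.7 CPM in KO. Both KO libraries were lower, and Cbx7 fell by 0.65 on the log2 scale (SE 0.12, adjusted p = 0.00329 by edgeR, a change of -36.4%). In crypts it had 38.8, 38.6, 44.3 and 28.5 CPM in WT and 28.5, 26.4, 17.6 and 25.7 CPM in KO. The groups met at a single point, WT4 against KO1, and the log2 fold change of -0.61 (SE 0.18, 95% interval -1.01 to -0.21) had an unadjusted p of 0.00679 and an adjusted p of 0.0613 (edgeR). An exact two-sided permutation test of its log2 CPM over the 8 libraries gave p = 0.0571, where the smallest p this design allows is 0.0286. Other settings put it on the other side of the threshold: the adjusted p was 0.0202 with DESeq2's Wald test, 0.0323 in the fit over all 16 libraries, 0.0315 without WT4 and 0.0409 without KO1. With the replicate number as a block it was 0.113, again short of the threshold. Among libraries of low mitochondrial ribosomal RNA (WT1 against KO1 to KO3) the difference of Cbx7 was -0.71 and between WT4 and KO4 it was -0.14 on the log2 scale, and in a fit that included this class of library the value was -0.47 (adjusted p = 0.285). In IEC organoids Cbx7 had 37.7 and 44.8 CPM in WT and 35.0 and 35.0 CPM in KO (log2 fold change -0.24, 95% interval -0.72 to 0.24, adjusted p = 0.856).

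Cbx8, its alternative in canonical PRC1 (chromosome 11, 119036305 to 119040969, minus strand), had 13.1 and 10.4 CPM in WT and 15.99 and 15.7 CPM in KO CAG organoids. Both KO libraries were above both WT libraries, with a log2 fold change of 0.43 (95% interval 0.03 to 0.82, unadjusted p = 0.0375, adjusted p = 0.0941 by edgeR). In crypts its mean was 10.01 ± 0.480 CPM in WT and 10.4 ± 1.54 CPM in KO (SD, n = 4 each), and in IEC organoids the log2 fold change was 0.07 (95% interval -0.67 to 0.81).

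The ligases of PRC1 did not pass the threshold. Ring1 (chromosome 17, 34020792 to 34024680, minus strand) had negative log2 fold changes in all 3 experiments, -0.22, -0.28 and -0.21 (edgeR adjusted p = 0.169, 0.856 and 0.169). Its 4 WT crypt libraries had 32.0, 28.9, 35.0 and 34.4 CPM and its 4 KO libraries 29.7, 25.5, 28.8 and 28.3 CPM, and in both organoid experiments both KO libraries were below both WT libraries. Rnf2, the other ligase (chromosome 1, 151458004 to 151500955, minus strand), had log2 fold changes of 0.05, -0.08 and 0.04, with 95% intervals of -0.21 to 0.31, -0.53 to 0.37 and -0.22 to 0.30. Bmi1, the PCGF subunit (chromosome 2, 18677018 to 18686629, plus strand), had 20.1, 25.4, 25.3 and 29.5 CPM in WT and 27.3, 27.1, 29.9 and 24.4 CPM in KO crypts. Its log2 fold change was 0.11 there, -0.19 in IEC organoids, where KO2 had 16.2 CPM against 25.3 to 32.4 CPM in the other 3, and 0.20 in CAG organoids (edgeR adjusted p = 0.563, 0.915 and 0.176).

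Counted without overlap of the libraries, Rbbp4, Ring1, Rnf2 and Cbx7 had both KO libraries below both WT libraries in IEC organoids and none of the 10 was above, where 19.4% of all genes lay below and 19.4% above. In CAG organoids 6 of the 10 lay below (Ezh2, Ezh1, Suz12, Rbbp4, Ring1 and Cbx7) and 3 above (Eed, Bmi1 and Cbx8), where 34.2% of all genes lay below and 35.5% above. No KO effect on any of the 10 differed between experiments at an adjusted p under 0.05. The fit over all 16 libraries, with 15585 genes, called 0.00642% of genes for IEC organoids against crypts, 0.372% for CAG organoids against crypts and 0.385% for CAG against IEC organoids. In that fit the smallest unadjusted p of the 10 was that of Ezh1, for CAG organoids 0.0206 against crypts and 0.0261 against IEC organoids. The edgeR adjusted p of these was 0.250 and 0.379. The experiments were deposited as separate tables, so a difference between them cannot be told apart from one between tables.

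PRC1 and PRC2 use alternative subunits, and the ratio of a pair of alternatives within a library needs no scaling between libraries. The log2 ratio of Cbx8 to Cbx7, per exonic length, was higher in KO than in WT in all 3 experiments. It was -1.89 ± 0.01 in WT and -0.81 ± 0.17 in KO CAG organoids (SD, n = 2 each), with both KO libraries above both WT libraries, a difference of 1.09. In crypts it was -1.07 ± 0.28 in WT and -0.41 ± 0.41 in KO (SD, n = 4 each), a difference of 0.66 (exact permutation test, two-sided p = 0.0571, groups overlapping), and in IEC organoids the difference was 0.31, which became -0.03 without WT2. Over the 15 ratio tests the smallest Benjamini-Hochberg adjusted p was 0.455, and with 2 against 2 libraries no exact p can be below 0.33.

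The log2 ratio of Ezh1 to Ezh2 differed by 0.48 between KO and WT crypts (exact permutation p = 0.114) and by 0.82 in IEC organoids, where it was 0.04 without KO2, and by -0.06 in CAG organoids, in which both genes fell. Rnf2 to Ring1 had differences of 0.26, 0.20 and 0.24 in crypts, IEC organoids and CAG organoids, with KO above WT in every library of both organoid experiments but not in crypts. Bmi1 to its paralogue Pcgf2 had differences of 0.37, -0.24 and 0.53. Rbbp7 to Rbbp4 had -0.11, 0.11 and -0.20, and here the KO libraries lay above the WT libraries in IEC organoids and below them in CAG organoids.

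**Figure D3:**
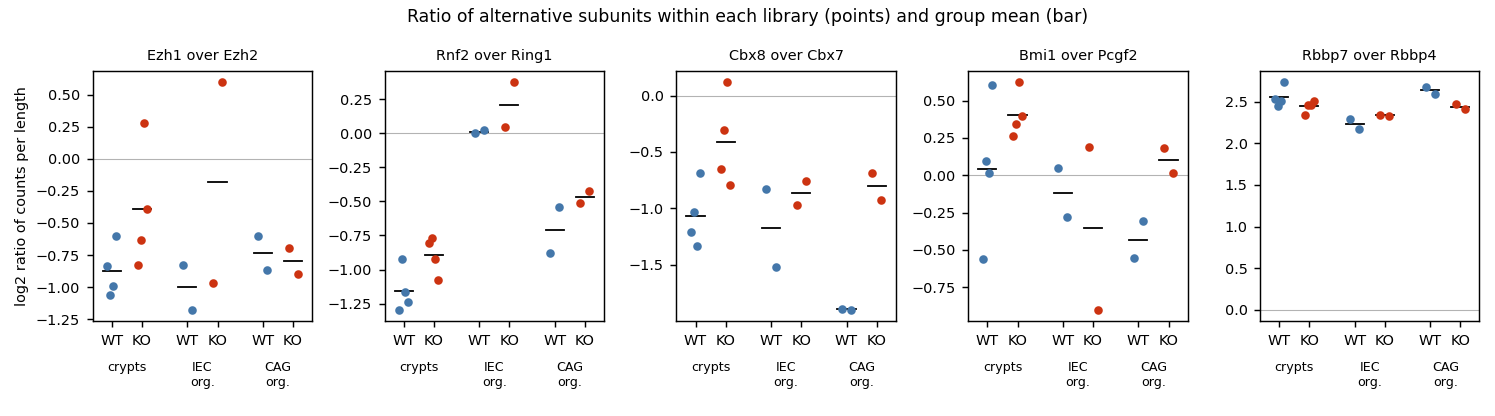
Log2 ratio of the counts per exonic length of alternative subunits (vertical axes) in every library (points) with the group mean (bar), for WT (blue) and KO (red); the grey line marks equal levels. The mean of Cbx8 over Cbx7 was -1.89 in WT CAG organoids, below both KO libraries.

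Some of the subunits, but not all 10, followed the summed levels of cell markers across libraries. Ezh2, Rbbp4 and Suz12 followed the markers of proliferating cells, 12 genes that include Mki67, the Mcm helicase subunits Mcm2, Mcm5 and Mcm6, and Top2a. Over the 16 libraries, each centred on its experiment's mean, the log2 CPM of Ezh2 had a Pearson r of 0.98 (Spearman rho 0.94) with the log2 of the summed CPM of these markers, and r was 0.95 without IEC organoid KO2 and crypt KO3. For Rbbp4 the r was 0.96 (0.90 without those libraries) and for Suz12 0.84 (0.81). For Ezh1 it was -0.55, which became -0.07 without the same libraries and so rested on them. Eed had 0.77, which became 0.46 without them, and Bmi1 had 0.54, which became 0.28, so these values too rested in part on the same libraries. Ring1 had 0.60 (0.43 without them), Cbx7 0.56 (0.59), Rnf2 0.08 (0.25) and Cbx8 -0.28 (-0.15). The pattern was not particular to proliferation markers, since with the 8 intestinal stem cell markers Ezh2 and Rbbp4 both had an r of 0.92 and Suz12 had 0.62. Cbx7 had an r of -0.79 (rho -0.82) with the 10 enterocyte markers, which was -0.69 without crypt WT2 and WT3. This was not particular to Cbx7, since Rbbp4 and Suz12 had -0.65, Ezh2 -0.64, Ring1 -0.56 and Eed -0.45. Without those crypt libraries Suz12 had -0.70. Rnf2 and Bmi1 had -0.05, while Ezh1 (0.32) and Cbx8 (0.21) were positive. With the stem cell markers Cbx7 had an r of 0.51 (rho 0.81), which was 0.76 without IEC organoid KO2 and WT2. These are descriptions of libraries that share depth, cell composition and a genotype split.

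**Figure D4:**
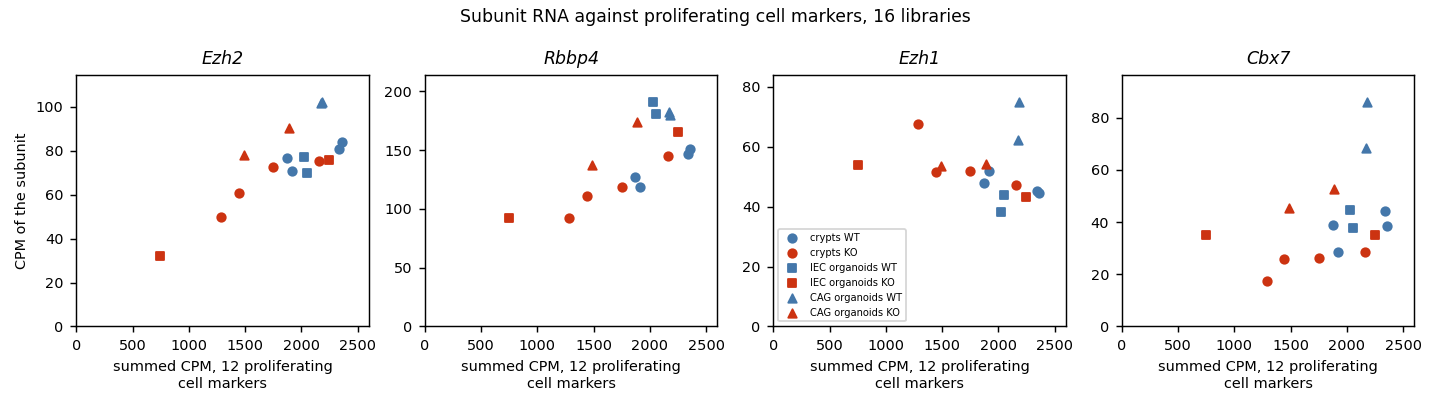
CPM of Ezh2, Rbbp4, Ezh1 and Cbx7 (vertical axes) against the summed CPM of 12 proliferating cell markers (horizontal axes) in the 16 libraries, with circles for crypts, squares for IEC organoids and triangles for CAG organoids, blue for WT and red for KO. Ezh2 falls along the marker sum down to the IEC organoid KO2 library at 748 CPM of markers and 31.9 CPM of Ezh2.

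The markers themselves differed between KO and WT libraries. In crypts all 12 proliferating cell markers had negative log2 fold changes, with a median of -0.47, and 2 passed the test, the chromosomal passenger Birc5 (-0.74, adjusted p = 0.0431 by edgeR) and the mitotic kinase Plk1 (-0.53, adjusted p = 0.0486). Both of these calls were lost with the replicate number as a block, with the mitochondrial RNA class in the fit, and when WT1, WT2, WT3, KO2 or KO3 was left out. In CAG organoids 11 of 12 were negative and 5 fell, among them the cycling marker Mki67 (-0.58), the mitotic kinase Aurkb (-0.53) and the replication helicase Mcm6 (-0.43), and in IEC organoids 12 of 12 were negative with a median of -0.48 and none past the test. The IEC organoid values did not follow genotype in both KO libraries, since the summed level was 2249 CPM in KO1, above the WT libraries at 2055 and 2027 CPM, and only KO2 was low, at 748 CPM. Of the 8 intestinal stem cell markers, Lgr5 fell in crypts (-0.74), a call lost in the same settings, and in CAG organoids (-1.25). Slc12a2 (-0.40) and Smoc2 (-0.38) also fell in CAG organoids, where Ascl2 (0.32) and Sox9 (0.16) were positive without passing the test. In IEC organoids 8 of 8 stem cell markers were negative, with a median of -1.48 and none past the test, and their summed level was lower in both KO libraries (2280 and 623 CPM) than in both WT libraries (3501 and 4924 CPM). The enterocyte markers were positive in 10 of 10 genes in crypts, with a median of 1.52 and none past the test, and 9 of 10 rose in CAG organoids, led by the apolipoproteins Apoa1 (2.39) and Apoa4 (2.01) and the keratin Krt20 (1.96). In IEC organoids Lct (-0.41), Sis (-0.27) and Fabp1 (-0.03) were negative and the others positive, none past the test. Their summed level there was 4650 CPM in KO1 and 14689 CPM in KO2, against 6510 and 11576 CPM in WT. Of the 38 markers of all cell types called in CAG organoids, 5 were still called in the fit over all 16 libraries. The part of these cell markers in the values of Ezh2, Rbbp4 and Suz12 was not tested.

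By the likeness of their pattern, the 3 genes nearest to Ezh2 among 12478 genes tested in all experiments were Pclaf (r = 0.985), the DNA ligase Lig1 (0.984) and the recombination factor Rad54l (0.983), over 16 libraries. Those nearest to Rbbp4 were Trim37 (0.987), the histone chaperone Nasp (0.981) and Pclaf (0.980), and Suz12 had Mki67 (0.964), the importin Ipo7 (0.958) and Plch1 (0.957). Cbx7 had other neighbours, the ribosomal protein genes Rplp0 (0.958) and Rps9 (0.954) and the tau gene Mapt (0.954). Eed had Mthfd2 (0.939), Wdr4 (0.938) and Srm (0.936), and Ezh1 had 2310022B05Rik (0.908), 1810026B05Rik (0.901) and Arrb1 (0.892). The nearest genes of the others had lower r, with Ptpn9 (0.890), Leo1 and Ccne2 for Bmi1, Commd1 (0.882), Mios and 2010111I01Rik for Ring1, Gm9920 (0.814), Gm10031 and Itgb1bp1 for Rnf2, and Nfe2l1 (0.799), Lrrfip2 and Usp4 for Cbx8. Among the 10 themselves, Ezh2 and Rbbp4 were the most alike pair (r = 0.959), and Ezh1 ran against Eed (-0.73), Rbbp4 (-0.63) and Ezh2 (-0.60). The r of Ezh1 with the proliferating cell markers rested on IEC organoid KO2 and crypt KO3. Whether these pairs rest on them too was not tested.

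The start regions of the members nearest to the proliferation pattern, and of Cbx7, are shown to give the sequence beside these values. All 10 genes matched RefSeq's promoter table (GRCm38.p6), which holds 250 bases before to 50 after each start. E2F factors, which drive S phase genes, are known to bind TTTCCCGC, TTTGGCGC, TTTCGCGC and TTTGCCGC. These letters, searched on both strands with overlapping matches allowed, occurred in 2 of the 10 members, Ezh2 and Suz12, in 3 of the 10 proliferating cell markers that matched the table, and in 2.27% of all 32851 promoters. The Ezh2 match lies after the start, at bases 4 to 11, and 1.86% of all promoters held a match before it. GC content of the 10 ran from 54.67% (Eed) to 74% (Ring1), above the median of 52.67% over all promoters. The shares were not matched for GC content. In the lines that follow, the capitals mark the match, and lines without capitals hold no exact match. Near matches were not searched for. The Ezh2 window runs from base -49 to base 11 of the start (chr6:47595020-47595079, minus strand) and the Suz12 window from -245 to -186 (chr11:79992861-79992920, plus strand). The Rbbp4 window (chr4:129335371-129335430, minus strand) and the Cbx7 window (chr15:79932647-79932706, minus strand) run from -60 to -1. Apart from the first 11 transcribed bases of Ezh2, all lie before the RefSeq start. For Suz12 and Rbbp4 that start is the start of the counted gene, but for Cbx7 it lies 38473 bases and for Ezh2 311 bases inside it, so their windows are at an internal start of the gene as counted.
Ezh2: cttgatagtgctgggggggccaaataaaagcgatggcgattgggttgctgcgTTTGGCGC
Suz12: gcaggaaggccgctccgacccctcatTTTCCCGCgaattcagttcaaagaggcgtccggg
Rbbp4: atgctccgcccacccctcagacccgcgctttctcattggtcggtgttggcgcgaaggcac
Cbx7: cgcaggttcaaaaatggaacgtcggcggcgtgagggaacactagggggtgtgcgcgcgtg

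Beyond the 10 subunits, 52 further genes of Polycomb complexes and of the enzymes that erase their marks were listed, and 49 were tested. In crypts 3 of the 49 changed, all higher in KO, beside 4.3% of all genes higher. Lcorl, an accessory factor of PRC2, had 37.2, 43.7, 46.7 and 47.4 CPM in WT and 57.7, 63.2, 73.2 and 60.8 CPM in KO (log2 fold change 0.54, SE 0.11, adjusted p = 0.0407 by edgeR), so every KO library was above every WT library. Rybp, a subunit of variant PRC1 that takes the place of the Cbx protein, had 35.5, 47.4, 40.4 and 43.2 CPM in WT and 54.4, 67.2, 57.3 and 60.9 CPM in KO (log2 fold change 0.53, SE 0.11, adjusted p = 0.0413), and its groups did not overlap either. Kdm6b, a demethylase that removes the PRC2 mark, had 76.0, 73.2, 60.7 and 71.6 CPM in WT and 96.6, 113.6, 117.0 and 82.4 CPM in KO (log2 fold change 0.54, SE 0.13, adjusted p = 0.0460). All 3 calls were lost with the replicate number as a block or with the mitochondrial RNA class in the fit, and also when WT1, WT2, WT3, KO2 or KO3 was left out, each of which left 0 of the 49 in settings where at most 0.147% of all genes were called. Without WT4 5 were called and without KO1 7, in settings that called 13.6% and 18% of all genes. In IEC organoids 0 of the 49 changed, and 12 did without KO1, a comparison that leaves KO2 as the only KO library and that called 15.8% of all genes.

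In CAG organoids 17 of the 49 changed, 7 higher and 10 lower, in the comparison that called 18.1% of all genes higher and 13.4% lower, so the total is near its background of 31.5%. With DESeq2's Wald test 8 of the 49 were called, beside 18% of all genes, and in the fit over all 16 libraries 0 were, beside 3.06% of all genes. The PRC2 core list has a single further gene, Rbbp7, the paralogue of Rbbp4, which fell by 0.42 (SE 0.10, adjusted p = 0.0122 by edgeR), from 384.0 and 367.1 CPM in WT to 255.1 and 307.5 CPM in KO. Of 8 accessory genes, Phf1, which helps PRC2 to spread, rose from 14.5 and 15.4 CPM to 28.2 and 25.6 CPM (log2 fold change 0.84, adjusted p = 0.00162), the largest absolute log2 fold change of the 49 there, while Lcor and Jarid2 fell by 0.57 and 0.29. Of 9 further canonical PRC1 genes, 4 fell, among them Scml4 (-0.55), the chromodomain gene Cbx6 (-0.43) and Phc3 (-0.37), and Phc2 rose (0.33). Cbx6 lies in the same family as Cbx7, and its values were -0.63 in crypts and -0.70 in IEC organoids without passing the test (edgeR adjusted p = 0.132 and 0.856). Of 20 variant PRC1 genes, 3 rose, Yaf2 (0.65), a paralogue of Rybp, Max (0.37) and Pcgf3 (0.35), and Mga fell (-0.31). Among 11 tested genes of the eraser list, Kdm6b rose (0.47, adjusted p = 0.00289), the histone H2A deubiquitinase Usp16 rose (0.31), and Ogt, the O-GlcNAc transferase found with the deubiquitinase Bap1, fell by 0.69 (adjusted p = 0.000321), as did Foxk1 (-0.36). Kdm6b was thus called higher in crypts and in CAG organoids when each experiment was fitted by itself. The crypt call was lost in the settings named above, and the CAG organoid call in the fit over all 16 libraries. In IEC organoids its log2 fold change of 0.36 was not past the test (edgeR adjusted p = 0.856).

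**Figure D5:**
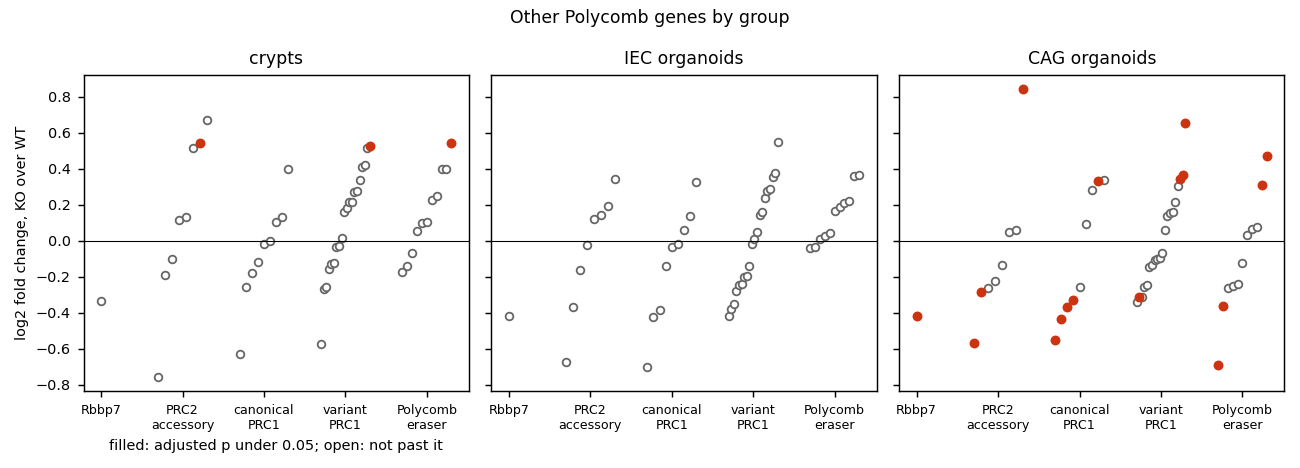
Log2 fold change of KO over WT (vertical axis) for 49 further Polycomb genes by group in crypts, IEC organoids and CAG organoids, with filled points for an adjusted p under 0.05. In crypts the 3 filled points are positive, in IEC organoids there is none, and in CAG organoids 7 are positive and 10 negative.

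Most Hox genes, well-known silent targets of these complexes, were at low counts, whereas Cdkn2b, on the same list, had a mean of 76.7 ± 19.4 CPM over the 4 WT crypt libraries (SD). Of 41 Hox and Cdkn2 genes in the tables, 2 passed the filter on low counts in crypts, 4 in IEC organoids and 3 in CAG organoids, so that most could not be tested. The cell cycle inhibitor Cdkn2b rose in CAG organoids, from 29.0 and 31.5 CPM in WT to 91.6 and 66.0 CPM in KO (log2 fold change 1.37, adjusted p = 0.000149 by edgeR). Of the 3 genes tested there it alone was called, in a comparison that called 18.1% of all genes higher in KO. Both KO libraries lay above both WT libraries. The values of Cdkn2b were 0.38 in crypts (adjusted p = 0.233) and 0.60 in IEC organoids (adjusted p = 0.856). The tested Hox genes did not pass in any experiment. In CAG organoids Hoxb6 had a log2 fold change of -1.01 and Hoxa3 of 0.44. In IEC organoids Hoxa3 had -1.03, Hoxa7 -0.30 and Hoxa2 -0.30, and in crypts Hoxa3 had 0.30.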

How the data were processed

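Gene counts of 16 mouse RNA-seq libraries were used, in 3 tables of raw counts that the authors deposited; per the labels, reads were aligned with HISAT2 2.0.5 and counted with featureCounts 1.5.0-p3. Genome build and strand setting are not given in the sources used here, but 95.2% of the gene positions in the crypt table, and those of all 10 members, equal GENCODE M21 (GRCm38). Each table was fitted by itself with edgeR 4.0.16 (filterByExpr, TMM, quasi-likelihood test; R 4.3.3), and p-values were adjusted by Benjamini-Hochberg over all genes tested; a call is an adjusted p under 0.05. Differences between experiments came from 1 fit over all 16 libraries. Ratios had 0.5 added to each count. Alternatives were DESeq2 1.42.0, other scalings and filters, a replicate block, and leaving out each library. The edgeR p-values set a difference against the spread between the libraries of a group, estimated with information shared over all genes tested. Counting error alone sets a floor of 0.178 to 0.408 CPM (3 counts).

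Named genes were the members, Cul4b, the 3 called genes of smallest adjusted p in each direction of each list and experiment, and the 3 genes most like each member. Named besides these were marker, target and ligase genes that describe a list (Top2a, Mcm2, Mcm5, Cul4a, Ddb1, Rbx1, Sox9, Rgmb, Axin2, Olfm4, Lct, Sis, Fabp1 and the tested Hox genes). Also named were the ratio partner Pcgf2 and genes that overlap a member. The list genes were named after their values were seen. The members and lists were chosen with earlier results of these data known. The fit was tested on simulated data, and the outcome is not given here.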

Additional observations from a re-analysis of the deposited data

Results flagged for a closer look

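The log2 ratio of Rbbp7 to Rbbp4 moved in opposite directions in the organoid experiments. Every KO library was above every WT library in IEC organoids (difference 0.11) and below in CAG organoids (difference -0.20). The difference between the experiments was not tested. Among 32 groups of 4 crypt libraries, for the 10 members, Cul4b and 5 ratios, 0 held a library far from the other 3 by Dixon's test at 95%, although chance alone flags about 1 group in 20.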

How the results depend on the processing

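The share of all genes called in each setting stands in parentheses. Of the 10 members in crypts 1 passed, Cbx7, without a low-count filter (4.91%), with DESeq2's Wald test (18%) and with all 16 libraries in 1 fit (10.6%), and leaving out a library gave 0 to 1 (0.0145% to 18%). Of the 49 other Polycomb genes in crypts, 3 in the fit reported, 1 passed with library size only (4.73%), 5 with at least 10 counts in every library (9.23%), 9 with DESeq2's Wald test, 8 with all 16 libraries, 0 with the mitochondrial RNA class (0.0149%), and 0 to 7 when a library was left out. In IEC organoids 0 to 2 members and 0 to 12 others passed with a library left out (0% to 15.8%). In CAG organoids 1 member passed with DESeq2's Wald test (18%), 0 with all 16 libraries (3.06%) and 0 at a fold of at least 2 (8.6%), and 1 to 5 with a library left out (19.8% to 36.8%); 8 others passed with DESeq2's Wald test, 0 with all 16 libraries and 8 to 21 with a library left out, where a lone library was taken to vary like the other group. The cause was not tested.

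Over 30 member log2 fold changes and 380 alternative values, 344 kept direction and side of the threshold, 13 lost the call, 8 gained it and 15 turned. Suz12 in crypts was 0.015 with the mitochondrial RNA class, and Rnf2 and Cbx8 in crypts were -0.035 and -0.033 with library size only. With a library left out, values in crypts ran from -0.12 to 0.040 for Suz12, from -0.0099 to 0.11 for Rnf2 and from -0.028 to 0.15 for Cbx8. In IEC organoids they ran from -1.20 to 0.043 for Ezh2, from -0.30 to 0.10 for Suz12, from -0.78 to 0.22 for Bmi1 and from -0.15 to 0.31 for Cbx8, and in CAG organoids from -0.079 to 0.15 for Rnf2. Differences in log2 ratio ran from -0.033 to 0.66 for Cbx8 over Cbx7 and from -0.78 to 0.31 for Bmi1 over Pcgf2 in IEC organoids, and from -0.19 to 0.070 for Ezh1 over Ezh2 in CAG organoids. No member's KO effect differed between experiments under any alternative run.

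With the replicate number as a block, 0, 0 and 4 members and 0, 0 and 23 other Polycomb genes passed in crypts, IEC organoids and CAG organoids, beside 0.0298%, 0.00717% and 36.3% of all genes. Over all genes in crypts 4 passed with the block, where 934 did without it. Same-numbered libraries had a mean correlation of 0.05 in crypts (-0.40 to 0.43), 0.34 in IEC organoids and 0.07 in CAG organoids. With both signs in crypts, and with 2 pairs an organoid experiment, whose correlations are equal by construction, the numbers were not taken to pair the libraries, and a shared batch was not tested.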

Other observations

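Markers of the epithelial cell types shifted in KO CAG organoids beside the Polycomb genes. Of 7 goblet cell markers 7 rose there, led by Clca1 (log2 fold change 2.22), Zg16 (2.08) and the trefoil factor Tff3 (0.82), and of 7 enteroendocrine markers 7 rose, with log2 fold changes from 0.57 to 1.91, and those of smallest adjusted p were the hormone Cck (1.91), the granin Chgb (1.03) and a second granin, Chga. Of 6 Paneth cell markers 5 rose, among them Ang4 (1.94), Mmp7 (1.55) and the lysozyme Lyz1 (0.96). Lgr5, Slc12a2 (-0.40) and Smoc2 (-0.38) fell among 8 stem cell markers. Of the rest, Ascl2 (0.32) and Sox9 (0.16) were positive there, and Rgmb (-0.23), Axin2 (-0.13) and Olfm4 (-0.11) negative, none past the test. In crypts Lgr5 and Ascl2 (-0.67) fell, calls that were both lost with the replicate block and without WT1, WT2, WT3, KO2 or KO3. In CAG organoids the tuft cell gene Avil rose (0.59), 1 of 4 tuft cell markers tested, as did the stromal gene Vim (0.58), the only stromal marker tested in organoids. The calls of Avil and Vim were lost with DESeq2's Wald test (adjusted p = 0.196 and 0.131). They were also lost in the edgeR fit over all 16 libraries (adjusted p = 0.704 and 0.345). That fit lost the calls of 33 of the 38 markers called in CAG organoids. Of the markers named here it kept only Clca1, Chga and Lgr5. Over all genes, the CAG organoid comparison called 18.1% higher and 13.4% lower in KO. In crypts and IEC organoids none of the goblet, Paneth, enteroendocrine, tuft, stromal or immune markers passed the test, and the immune list had 1 of 10 genes tested in each organoid experiment.

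The other subunits of the ligase, Cul4a, Ddb1 and Rbx1, did not pass the test in any experiment, so that 1 of 4 genes of that list, Cul4b, was called in each. The mitochondrial ribosomal genes mt-Rnr1 and mt-Rnr2 rose in CAG organoids (0.40 and 0.38). In crypts their log2 fold changes were -1.92 and -2.65, with adjusted p of 0.423 and 0.264 by edgeR.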
